A study of Mus musculus with 2 samples.

Results

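The 36 genes described here encode the enzymes that turn glucose into pyruvate and lactate, the transporters at both ends of that path, and targets and regulators of hypoxia-inducible factor (HIF). They were chosen as a list of gene symbols, of which those with at least 50 unique molecular identifiers (UMIs, 1 per captured transcript) over the kept cells were to be described. All 36 reached that minimum, out of 19144 genes in the table and 11057 genes that reach it. Their transcripts were counted by Drop-seq, in which droplets give the polyadenylated RNA of each cell a barcode. Forebrain tissue lining the lateral ventricles of embryonic CD1 mice had been grown into primary neurospheres. The medium contained 10 ng/mL of leukemia inhibitory factor (LIF), a cytokine under which primitive neural stem cells form colonies, and the protocol also names an additive, EFH, that it does not explain. The labels list 2 samples, both of this kind and with no genetic change or other treatment named, while the table assigns none of its 4000 barcodes to a sample. It was therefore treated as 1 sample without replicates, so that no test could be run and every interval below is a 95% interval for counting error alone. The sources speak of nuclei in one place and of dissociated cells in another, and barcodes are called cells here.

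Glycolysis splits glucose into pyruvate in the cytosol, and lactate dehydrogenase reduces that pyruvate to lactate, which monocarboxylate transporters carry out of the cell. When oxygen is plentiful, prolyl hydroxylases of the EGLN family mark the HIF alpha subunit for destruction. When it is scarce, the subunit accumulates, pairs with ARNT and binds DNA at a short core sequence, from which it raises genes of glucose uptake, glycolysis, lactate export, mitochondrial turnover and blood vessel growth. Bnip3, a mitophagy receptor on the outer mitochondrial membrane, is among the classical targets of this factor and served here to sort the cells.

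Kept cells numbered 3765, with 235 left out for having fewer than 500 genes or more than 10% mitochondrial UMIs. They held 17395968 UMIs, with a median of 3869 per cell (638 to 54060) and 1993 genes. No barcode occurred more than once, and 285 of the 4000 contained an unread base. The labelled tissue was visible in radial glia genes, with 124658 UMIs of Fabp7, 61264 of Vim and 13152 of Nes, though 360 of Pax6. Astrocyte genes were uneven, with 10 UMIs of the filament gene Gfap and 40 of Aqp4, but 3446 of Apoe and 2440 of Gja1. Mlc1 had 1519, Slc4a4 1316 and Slc1a2 515. Doublets were not called.

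The HIF core sequence, ACGTG or its reverse complement CACGT, was looked for on both strands of the 250 bases upstream of each RefSeq start site (build GRCm38.p6, the same assembly as mm10). The palindrome CACGTG counts as a match on each strand. At least 1 window with the letters was found for 22 of the 34 members that have a window (64.7%), for 2142 of 8195 genes with a window and at least 50 UMIs (26.1%), and for 18.5% of all 27025 genes with a window. Base composition was not matched between these sets. A match is a run of letters and was not shown here to be bound. The stretches below, each 80 bases 5′ to 3′ on the gene's own strand with the matched letters in capitals, are printed for Bnip3 and 5 members that rose with it, then for 1 that rose without a match (Pdk1) and for 2 that have a match and did not pass the call (Slc16a1 and Hif1a).
Bnip3 (chr7:138909574-138909653, minus strand): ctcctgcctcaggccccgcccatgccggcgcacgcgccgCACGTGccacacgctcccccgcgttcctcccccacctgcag
Ankrd37 (chr8:45999851-45999930, minus strand): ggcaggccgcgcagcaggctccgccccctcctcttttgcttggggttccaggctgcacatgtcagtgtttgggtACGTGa
Slc16a3 (chr11:120948987-120949066, plus strand): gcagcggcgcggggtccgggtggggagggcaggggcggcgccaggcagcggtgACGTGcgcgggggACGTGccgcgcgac
Egln3 (chr12:54204045-54204124, minus strand): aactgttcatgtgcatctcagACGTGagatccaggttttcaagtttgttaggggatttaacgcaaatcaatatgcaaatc
P4ha2 (chr11:54100806-54100885, plus strand): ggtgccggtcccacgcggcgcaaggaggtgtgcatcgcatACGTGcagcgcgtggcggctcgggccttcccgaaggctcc
Ddit4 (chr10:59951918-59951997, minus strand): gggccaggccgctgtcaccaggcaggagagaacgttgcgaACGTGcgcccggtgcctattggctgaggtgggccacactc
Pdk1 (chr2:71873144-71873223, plus strand): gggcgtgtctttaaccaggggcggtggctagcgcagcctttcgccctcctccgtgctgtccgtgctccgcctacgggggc
Slc16a1 (chr3:104638425-104638504, plus strand): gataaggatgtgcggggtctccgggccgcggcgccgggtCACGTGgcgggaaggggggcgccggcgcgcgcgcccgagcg
Hif1a (chr12:73907757-73907836, plus strand): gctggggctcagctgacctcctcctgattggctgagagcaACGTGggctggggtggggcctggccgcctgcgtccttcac
Bnip3 itself is the first of the set and its capitals are the palindrome. The end of a promoter window, downstream of the start site, was found in a GENCODE transcript for 8 of the 9 genes, all but Hif1a. Any window of the gene counted, and the first bases after the start site were not compared.

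Together the 36 genes made up 90481 UMIs, or 0.520% of all UMIs (5201 CPM, UMIs scaled so that all genes sum to 1000000). The UMI tags the polyadenylated end of a transcript, so CPM is not divided by gene length. Within the list, the lower glycolytic enzymes from aldolase to pyruvate kinase carried 2620 CPM (50.4% of the members' UMIs), and the 2 lactate dehydrogenases and 2 lactate transporters 1214 CPM (23.3%). Targets of HIF outside metabolism carried 566 CPM (10.9%), and glucose uptake with upper glycolysis 501 CPM (9.63%). The transcripts of HIF1A and its hydroxylases were at 167 CPM, those of the 2 mitophagy receptors at 90.1 CPM and those of the 2 pyruvate dehydrogenase kinases at 42.7 CPM.

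Single genes spanned from Pkm, pyruvate kinase, at 907 CPM (893 to 921), to P4ha2, a catalytic subunit of collagen prolyl 4-hydroxylase, at 5.35 CPM (4.31 to 6.55), with 93 UMIs in 76 cells. Aldoa, the muscle-type aldolase, at 758 CPM (745 to 771), and Ldha, lactate dehydrogenase A, at 754 CPM (741 to 767), followed Pkm with intervals that overlap each other. Tpi1, triose phosphate isomerase, was at 436 CPM, Ldhb at 392 CPM, Gpi1, glucose phosphate isomerase, at 312 CPM and Aldoc, the brain-type aldolase, at 305 CPM. Enolase (Eno1) was at 152 CPM. Some obligatory steps of the path were scarce by comparison: phosphoglycerate mutase (Pgam1) stood at 28.7 CPM, phosphoglycerate kinase (Pgk1) at 20.3 CPM and glyceraldehyde phosphate dehydrogenase (Gapdh) at 13.9 CPM (12.2 to 15.8), the last with 242 UMIs in 226 cells. Gapdh, Pgk1 and Pgam1 have annotated pseudogene copies, which are described with the copies further on.

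Among the regulated genes, Ddit4, an inhibitor of mTORC1, had 223 CPM, Hif1a, the oxygen-labile HIF subunit, 96.5 CPM, P4ha1 91.9 CPM and the angiogenic factor Vegfa 69.4 CPM. The lactate transporter Slc16a1 (MCT1) was at 57.8 CPM and its relative Slc16a3 (MCT4) at 11.1 CPM. Bnip3 had 712 UMIs in 387 cells (40.9 CPM) and its relative Bnip3l 855 UMIs in 689 cells (49.1 CPM). The stress-response gene Ndrg1 had 152 UMIs in 80 cells (8.74 CPM).

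**Figure D1:**
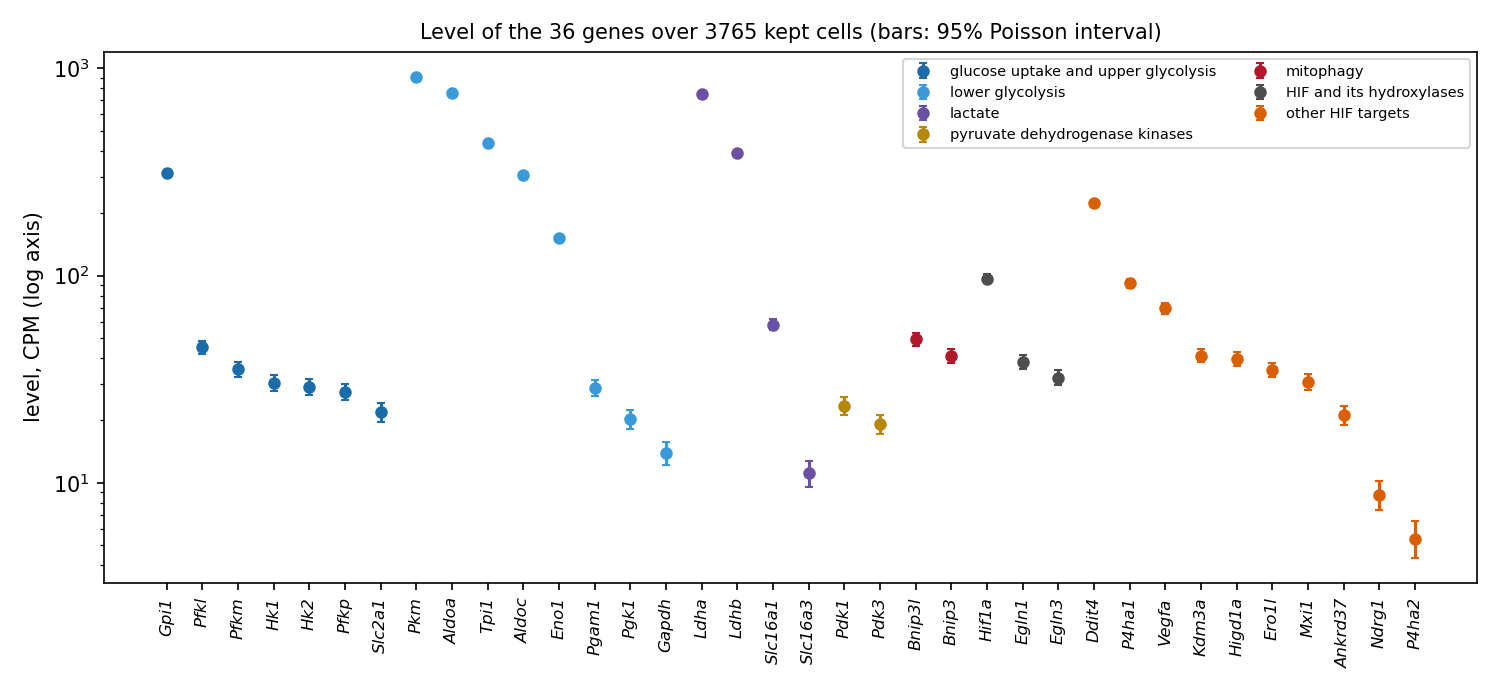
Level of each of the 36 genes in CPM over the 3765 kept cells (log axis), grouped and coloured by role, with bars for the 95% Poisson interval. Pkm, Aldoa and Ldha lie highest, at 754 to 907 CPM, and P4ha2 lowest, at 5.35 CPM.

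Cells differed more in some of these genes than in others. With every cell of at least 1000 UMIs thinned at random to 1000 (3576 cells, 189 left out), a gene whose cells differ by counting error only has a variance about equal to its mean. The ratio of variance to mean was 1.85 for Bnip3, 1.71 for Vegfa, 1.62 for Ddit4, 1.48 for Ndrg1 and 1.41 for Ankrd37, an ankyrin repeat gene. The median over members was 1.10 (0.982 to 1.85), against 1.04 over all genes, with the 5th and 95th percentiles at 0.987 and 1.17. Hif1a (0.990), Pfkm (0.992) and Slc16a1 (1.003) lay under the median of all genes. So did members that rise with Bnip3 further on, among them Pdk3 (0.982), Hk1 (0.991), Pgk1 (1.005), Higd1a (1.006) and Hk2 (1.022).

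To see which members rise together with Bnip3, the 3576 thinned cells were sorted by UMIs of Bnip3 (chromosome 7, 138890836 to 138909519) per 1000. No Bnip3 UMI was left in 3441 cells (Bnip3-zero), 1 in 102 cells, and 2 or more in 33 cells (Bnip3-high). In full counts, Bnip3-high cells had 0.521 to 3.50 Bnip3 UMIs per 1000, with a median of 1.28. Of the Bnip3-zero cells, 246 still held a Bnip3 UMI when all their UMIs were counted. Bnip3 was then left out, the UMIs of each class were summed, and a gene was called above or below where the whole interval of the ratio of CPM lay over 1.5 or under its inverse, 0.667. No cell type that should lack these genes was defined, so a background share of cells from free RNA could not be set.

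Of the 35 other members, 28 lay above that limit, 0 below and 7 between, and 34 had a ratio over 1. Over all 11056 genes the same call was made above for 2.61% and below for 0.651%. The members were chosen with earlier results of these data known. A call below was out of reach for genes of few UMIs. Dusp1, with 0 UMIs in Bnip3-high and 415 in Bnip3-zero cells, had an interval up to 1.34. Members such as Gapdh, with 228 UMIs in Bnip3-zero cells, could therefore not have been called below. The median ratio was 4.47 over members, against 0.909 over all genes. After thinning, the 35 members gave 3 to 36 UMIs per 1000 in a Bnip3-high cell, with a median of 18, and 0 to 34 in a Bnip3-zero cell, with a median of 4. The ranges of single cells thus overlap over most of their length although the medians are far apart. In full counts the members' sum without Bnip3 was 18152 CPM in the 33 Bnip3-high cells and 4939 CPM in the Bnip3-zero cells.

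Depth, RNA make-up and cell cycle differed between the classes. Median depth was 3226 UMIs in Bnip3-high and 4079 in Bnip3-zero cells. The share of mitochondrial UMIs was 2.55% in Bnip3-high and 3.03% in Bnip3-zero cells, that of ribosomal protein genes 8.71% in Bnip3-high and 8.61% in Bnip3-zero cells, and that of the nuclear RNA Malat1 0.465% in Bnip3-high and 0.302% in Bnip3-zero cells. At least 1 UMI of 6 proliferation genes was found in 13 of 33 Bnip3-high cells (39.4%, exact binomial interval 22.9 to 57.9) and in 59.6% of Bnip3-zero cells (57.9 to 61.2). Among cells without a proliferation UMI, 20 Bnip3-high and 1391 Bnip3-zero, 27 of the 35 members lay above the limit. With at least 1000 genes per cell 27 did, and with at most 5% mitochondrial UMIs 27. With the 5% of cells of most UMIs left out 28 did, but all 33 Bnip3-high cells stayed, so their counts were unchanged. The share of all genes called was not computed within these subsets. The part of Malat1 and of ribosomal protein genes was not tested.

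**Figure D2:**
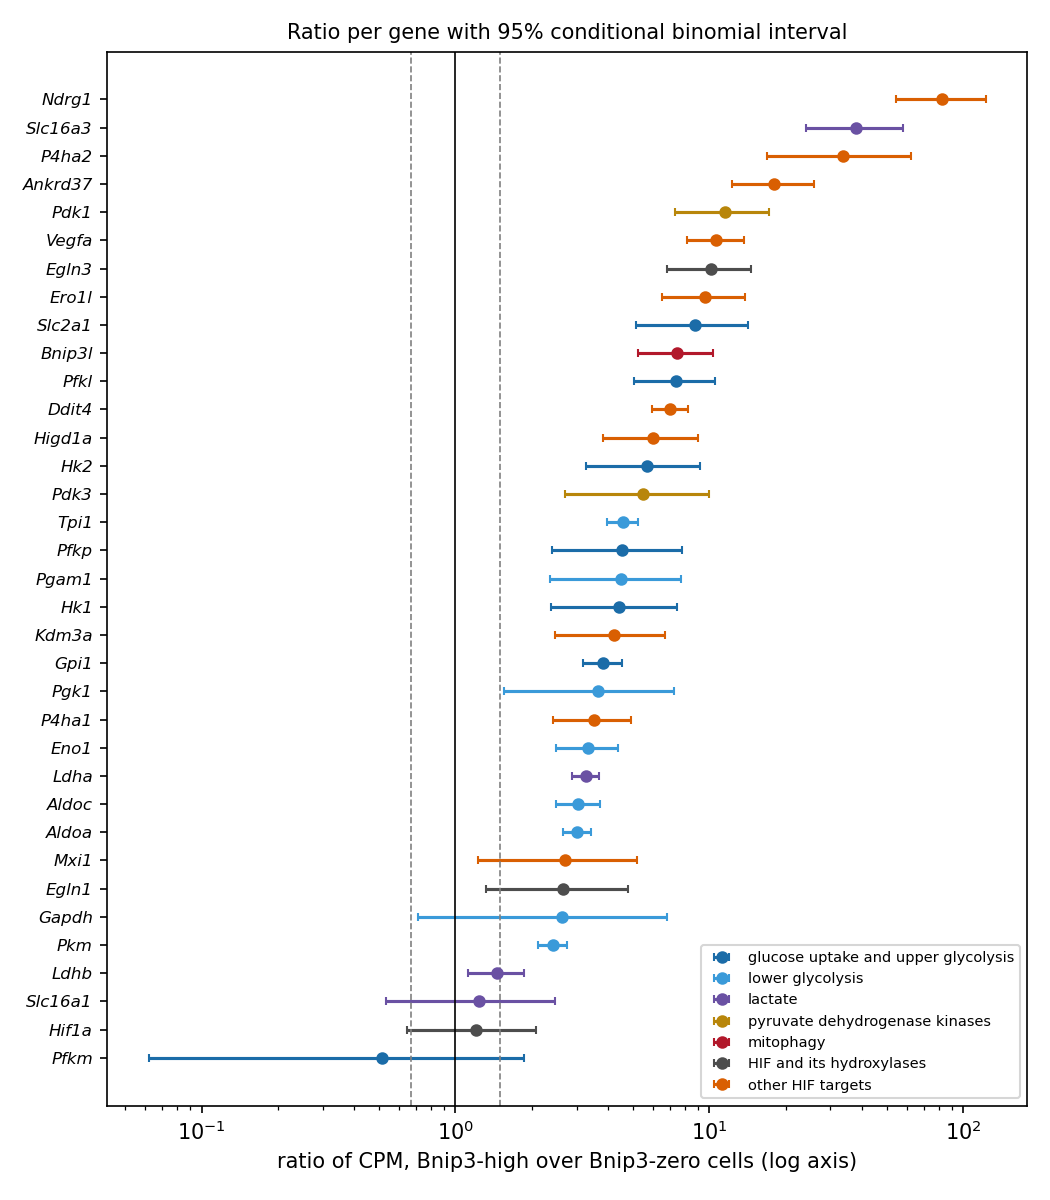
Ratio of CPM, Bnip3-high over Bnip3-zero cells (log axis), for the 35 members other than Bnip3, ordered by ratio and coloured by role, with the 95% conditional binomial interval; dashed lines mark 1.5 and its inverse. The ratios run from 0.515 for Pfkm to 82.3 for Ndrg1, and 28 intervals lie wholly to the right of the upper line.

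Glucose uptake and upper glycolysis rose in 6 of 7 members, with a median ratio of 4.53. The glucose transporter gene Slc2a1 was at 162 CPM in Bnip3-high cells and 18.4 CPM in Bnip3-zero cells, a ratio of 8.81 (5.15 to 14.2). Gpi1 had a median of 1.02 UMIs per 1000 in Bnip3-high cells (0 to 3.83) and of 0.231 in Bnip3-zero cells (0 to 3.89), and a ratio of 3.81 (3.17 to 4.55). Both hexokinases, which trap glucose in the cell by phosphorylation, rose, Hk2 by 5.68 times (3.28 to 9.19) and Hk1 by 4.39 times (2.38 to 7.44), each with its call lost in some alternative settings. Of the phosphofructokinases, which catalyse the committed step, the liver-type Pfkl rose 7.42 times (5.07 to 10.5) and the platelet-type Pfkp 4.53 times (2.39 to 7.83). The muscle-type Pfkm had 2 UMIs in the Bnip3-high cells, or 18.0 CPM, against 35.0 CPM in Bnip3-zero cells, a ratio of 0.515 (0.0622 to 1.87). It is the only member with a ratio under 1, and its interval includes 1.

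Lower glycolysis rose in 7 of 8 members, with a median ratio of 3.19. Tpi1 had the highest of these ratios, 4.56 (3.96 to 5.24), with 1881 CPM in Bnip3-high and 412 CPM in Bnip3-zero cells. Its level per cell was 0 to 5.27 UMIs per 1000 in Bnip3-high cells, with a median of 1.70, and 0 to 5.45 in Bnip3-zero cells, with a median of 0.307. Aldoa was found in each of the 33 Bnip3-high cells, at 0.435 to 5.44 UMIs per 1000 with a median of 1.89, and in Bnip3-zero cells at 0 to 4.71 with a median of 0.649. Of the 2 aldolases, Aldoa rose 3.02 times (2.65 to 3.43) and Aldoc 3.05 times (2.48 to 3.72), and Pgam1 rose 4.47 times and Eno1 3.33 times. Pkm rose least among those called, 2.42 times (2.12 to 2.75). Pgk1 rose 3.64 times (1.56 to 7.26) on 8 UMIs and kept its call in 9 of the 20 alternative settings that keep the Bnip3 split. Gapdh did not pass the limit, with 4 UMIs in Bnip3-high cells and a ratio of 2.64 (0.712 to 6.84).

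In the lactate step 2 of 4 members rose, with a median ratio of 2.36. Ldha, whose enzyme favours lactate formation, had 0 to 4.37 UMIs per 1000 in Bnip3-high cells, with a median of 2.38, and 0 to 4.61 in Bnip3-zero cells, with a median of 0.623. Its ratio was 3.26 (2.88 to 3.69). Ldhb had a median of 0.516 UMIs per 1000 in Bnip3-high and of 0.315 in Bnip3-zero cells, and its ratio of 1.46 (1.12 to 1.87) did not pass the limit. The exporter Slc16a3 (chromosome 11, 120948480 to 120960868, mm10) was at 252 CPM (167 to 364) in Bnip3-high cells and at 6.65 CPM (5.47 to 8.01) in Bnip3-zero cells, a ratio of 37.9 (24.1 to 57.8). In the 10 cells with at least 3 Bnip3 UMIs the ratio was 4.56 (0.115 to 26.0) and was not called. Slc16a3 was detected in 16 of 33 Bnip3-high cells (48.5%) and 83 of 3441 Bnip3-zero cells (2.41%), and after thinning to equal depth in 21.2% of Bnip3-high and 0.901% of Bnip3-zero cells. Slc16a1, which works in uptake as well as export, was at 72.0 CPM in Bnip3-high and 58.0 CPM in Bnip3-zero cells, a ratio of 1.24 (0.535 to 2.46).

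Both pyruvate dehydrogenase kinases, which switch off the entry of pyruvate into the mitochondrial cycle, rose. Pdk1 was at 225 CPM in Bnip3-high and 19.6 CPM in Bnip3-zero cells, a ratio of 11.5 (7.33 to 17.3), and was found in 19 of 33 Bnip3-high cells. Pdk3 rose 5.47 times (2.70 to 9.93), but 36.4% of its 11 UMIs came from a single cell, without which the ratio was 3.48 (1.39 to 7.26) and no longer called. Bnip3l, the second mitophagy receptor, rose 7.47 times (5.25 to 10.4), with 342 CPM in Bnip3-high and 45.8 CPM in Bnip3-zero cells.

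Of HIF1A and its hydroxylases, 1 of 3 transcripts rose. Egln3, the prolyl hydroxylase PHD3, had 279 CPM in Bnip3-high and 27.5 CPM in Bnip3-zero cells, a ratio of 10.1 (6.82 to 14.6). It was found in 11 of the 33 Bnip3-high cells. Of its 31 UMIs there, 32.3% came from 1 cell, without which the ratio was 6.87 (4.21 to 10.6). Egln1, the hydroxylase PHD2, had a ratio of 2.65 (1.32 to 4.78), which passed in 1 of those 20 settings, a lower fold limit. Hif1a was at 117 CPM in Bnip3-high and 96.8 CPM in Bnip3-zero cells, a ratio of 1.21 (0.642 to 2.07). HIF1A is controlled mainly through the stability of its protein, which these counts do not measure.

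The other HIF targets rose in 9 of 10 members, with a median ratio of 8.33. Ndrg1 (chromosome 15, 66929318 to 66969640) had the highest ratio of any member, 82.3 (54.5 to 123), with 360.0 CPM in Bnip3-high and 4.37 CPM in Bnip3-zero cells. It was found in 10 of the 33 Bnip3-high cells, and 37.5% of its 40 UMIs there came from 1 cell, without which the ratio was 51.5 (31.3 to 82.0). Over the 20 alternative settings that keep the Bnip3 split it lay between 32.3 and 208. P4ha2 rose 33.7 times (16.9 to 62.2) on 13 UMIs, and P4ha1 3.51 times (2.42 to 4.93). Ankrd37 was at 306 CPM in Bnip3-high and 16.9 CPM in Bnip3-zero cells, a ratio of 18.1 (12.3 to 25.8). Vegfa was found in 24 of 33 Bnip3-high cells at 0 to 4.75 UMIs per 1000, with a median of 0.471, against 0 to 5.60 and a median of 0 in Bnip3-zero cells. Its ratio was 10.6 (8.18 to 13.6). Ddit4 had a median of 1.04 UMIs per 1000 in Bnip3-high cells and of 0 in Bnip3-zero cells, and rose 7.03 times (5.95 to 8.25).

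Among the remaining targets, Ero1l, an endoplasmic reticulum oxidase that forms disulfides, rose 9.64 times (6.52 to 13.8). Higd1a, a mitochondrial inner membrane protein gene, rose 6.02 times (3.83 to 9.05). Kdm3a, a histone H3 lysine demethylase, rose 4.20 times (2.47 to 6.69). Mxi1, a MAX partner that opposes MYC, had a ratio of 2.70 (1.23 to 5.18) and did not pass. The ACGTG letters were present for 16 of the 26 members above the limit that have a window (61.5%) and for 5 of the 7 between the limits (71.4%), these 5 being Egln1, Hif1a, Mxi1, Pfkm and Slc16a1.

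Sorted more finely, the members' sum without Bnip3 went up with the Bnip3 class, at 4939, 10447, 17066 and 20726 CPM in cells with 0, 1, 2 and 3 or more Bnip3 UMIs per 1000, of which there were 3441, 102, 23 and 10. Ndrg1 was at 4.37, 84.3, 269 and 577 CPM over these 4 classes, Vegfa at 56.7, 328, 422 and 1032 CPM, Tpi1 at 412, 1039.8, 1650 and 2428 CPM, and Ldha at 725, 1529, 2239 and 2670 CPM. Slc16a3 did not follow this order, at 6.65, 117 and 345 CPM in the first 3 classes and 30.3 CPM (0.768 to 169) in the 10 cells of the last, which held 1 of its UMIs. Ankrd37 was at 16.9, 112, 333 and 243 CPM. Ldhb was at 389, 480, 499 and 728 CPM, and Hif1a at 96.8, 79.6, 102 and 152 CPM.

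**Figure D3:**
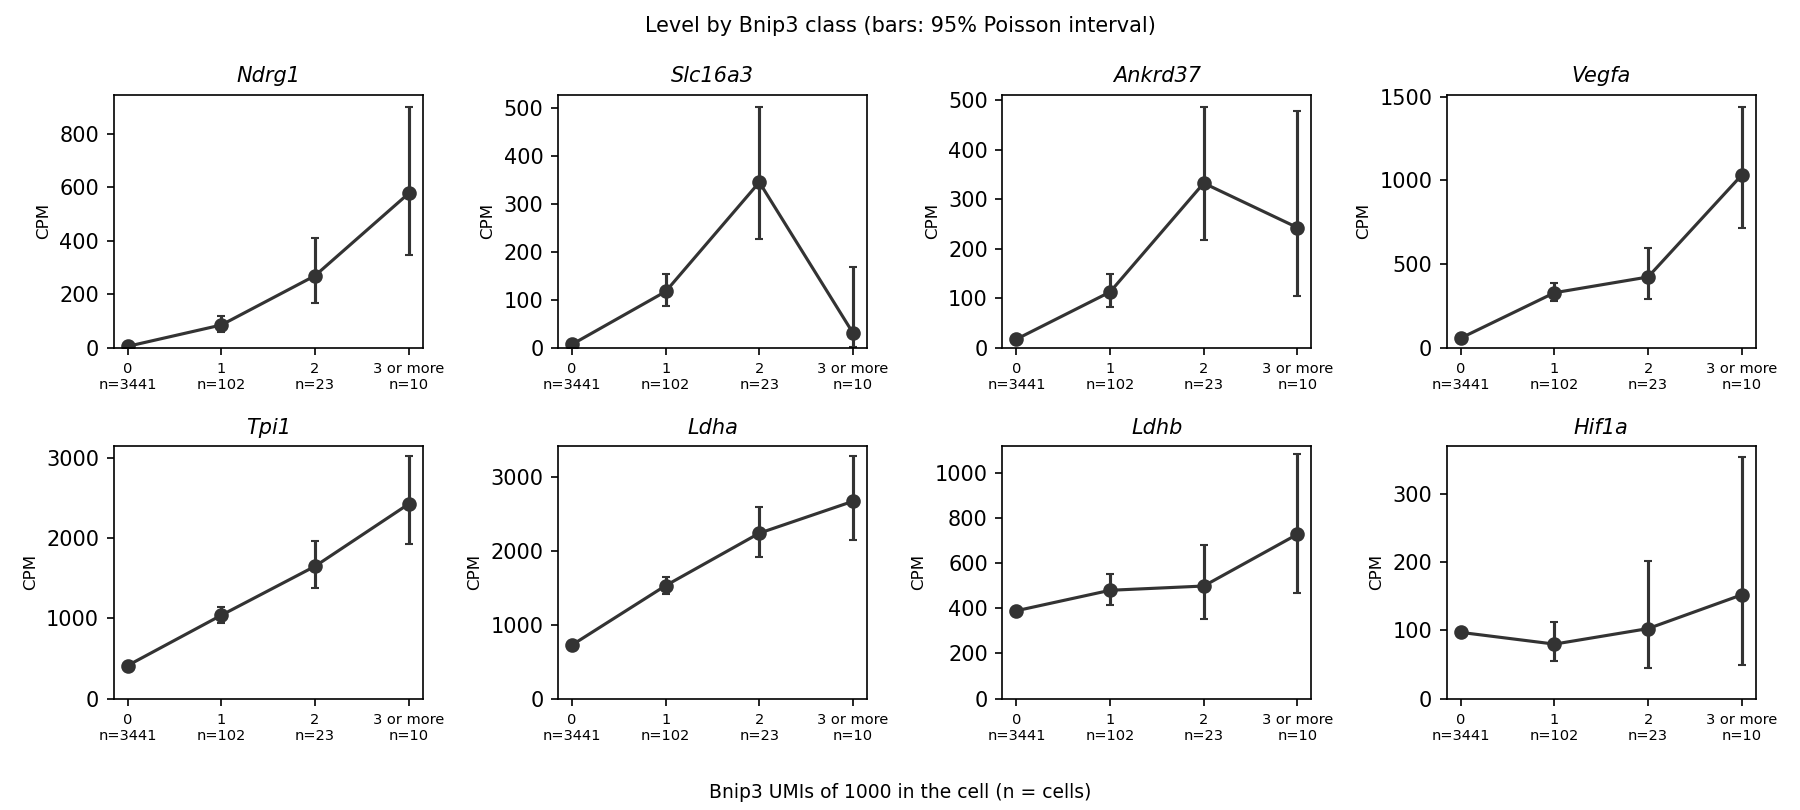
Level in CPM of 8 members by Bnip3 UMIs per 1000 in the cell (0, 1, 2, and 3 or more, with the number of cells under each class), with 95% Poisson intervals. Ndrg1, Vegfa, Tpi1 and Ldha go up through all 4 classes, Slc16a3 and Ankrd37 reach their highest level at 2 UMIs, while Ldhb lies at 389 to 728 CPM and Hif1a at 79.6 to 152 CPM.

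Members also rose in cells sorted by other targets. The same cells were split by whether at least 1 UMI per 1000 of another target was left after thinning, with that target then left out and Bnip3 read as an outcome. All 4 splits are of the same cells and are not separate experiments. With Ankrd37 (75 cells with, 3501 without), 26 of 35 members lay above the limit and 0 below, against 1.29% and 0.181% of all genes. With Pdk1 (91 with, 3485 without), 21 of 35 lay above and 0 below, against 0.995% and 0.0995%. With Vegfa (237 with, 3339 without), 21 of 35 lay above and 0 below, against 1.11% and 0.0543%. Bnip3 rose 11.02 times (8.99 to 13.4) in cells with Ankrd37, 11.5 times (9.58 to 13.8) in cells with Pdk1 and 8.15 times (6.94 to 9.56) in cells with Vegfa.

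Ndrg1 had the highest ratio under each of the 3 splits, at 19.1 with Ankrd37, 17.4 with Pdk1 and 16.6 with Vegfa, and Slc16a3 rose 12.3, 15.8 and 10.1 times in that order. Slc16a1 was near 1, at 1.22 (0.773 to 1.85), 1.07 (0.686 to 1.58) and 0.990 (0.744 to 1.29), as did Hif1a, at 1.09 (0.751 to 1.53), 1.08 (0.774 to 1.46) and 0.972 (0.780 to 1.20). Pfkm was at 0.875, 0.770 and 0.976, and Ldhb at 1.12, 1.19 and 1.09. Egln1 passed the limit with Pdk1, at 2.26 (1.55 to 3.19). Some calls of abundant glycolytic genes were lost. With Vegfa these were Aldoa at 1.56 (1.47 to 1.66), Aldoc at 1.47, Eno1 at 1.69 and Pkm at 1.33, and with Pdk1 they were Pkm at 1.48 (1.36 to 1.61) and Eno1 at 1.78 (1.45 to 2.16).

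**Figure D4:**
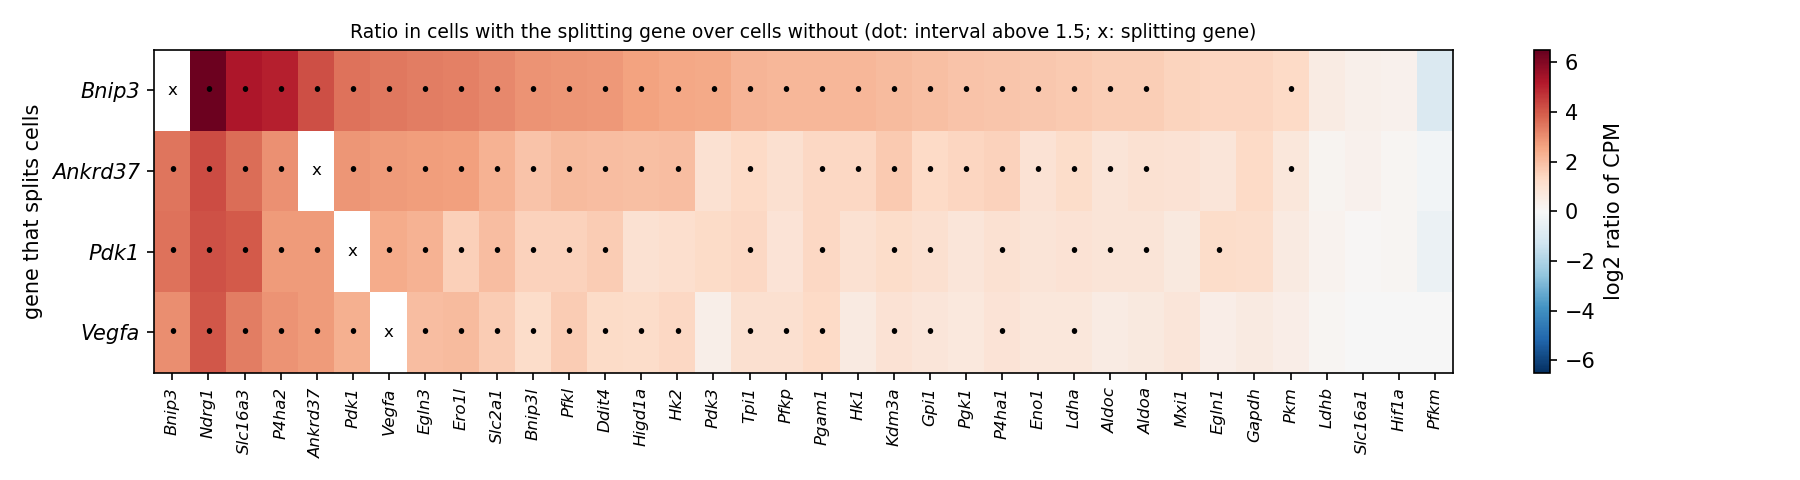
Log2 ratio of CPM in cells with the splitting gene over cells without it, for each member (columns, ordered by the Bnip3 ratio) and each of the 4 splitting genes (rows); dots mark intervals wholly above 1.5, and a cross marks the splitting gene itself. Slc16a3, Ndrg1 and P4ha2 are called in all 4 rows, and Pfkm, Ldhb, Slc16a1 and Hif1a in none.

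No member passed either limit when cells were sorted by proliferation. Cells with at least 1 thinned UMI of Mki67, Top2a, Cdk1, Rrm2, Pcna or Ube2c (2116) were set against those with none (1460). Of the 36 members, 0 lay above and 0 below the limit, against 3.50% and 0.687% of all genes, and 8 of the 36 had a ratio over 1. Shares that low leave few calls to expect among 36 genes, so the lack of calls is not read as a trait of the members. The median ratio was 0.890 over members and 0.969 over all genes. Bnip3 had the lowest ratio, 0.616 (0.530 to 0.717), with 33.5 CPM in cells with a proliferation UMI and 54.4 CPM in cells without, followed by Ddit4 at 0.628 (0.589 to 0.670), with 183 CPM in cells with and 291 CPM in cells without. Slc16a1 had the highest, 1.35 (1.17 to 1.55), and Hk2 (1.21) and Egln1 (1.20) came next.

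Isoform shares lay apart between Bnip3-high and Bnip3-zero cells in 5 of 8 sets of paralogues. The criterion was that the exact binomial intervals of a member's share do not overlap. It was not applied to other sets of genes, so no background share can be given for the 5 of 8. The largest shift was in the monocarboxylate transporters, where Slc16a3 supplied 28 of 36 UMIs of the pair in Bnip3-high cells (77.8%, 60.9 to 89.9) and 111 of 1079 in Bnip3-zero cells (10.3%, 8.54 to 12.3). Egln3 supplied 73.8% (58.0 to 86.1) of the Egln1 and Egln3 UMIs in Bnip3-high and 42.4% (39.4 to 45.4) in Bnip3-zero cells. Of its 31 UMIs in Bnip3-high cells, 32.3% came from 1 cell. Among the phosphofructokinases, Pfkl made up 68.8% (53.8 to 81.3) in Bnip3-high and 39.7% (37.3 to 42.1) in Bnip3-zero cells, and Pfkm 4.17% (0.509 to 14.3) in Bnip3-high and 34.7% (32.4 to 37.0) in Bnip3-zero cells, while Pfkp made up 27.1% in Bnip3-high and 25.6% in Bnip3-zero cells. Ldha made up 80.7% (76.0 to 84.8) of lactate dehydrogenase UMIs in Bnip3-high and 65.1% (64.4 to 65.8) in Bnip3-zero cells. P4ha2 made up 27.7% (15.6 to 42.6) of the P4ha1 and P4ha2 UMIs in Bnip3-high and 3.83% (2.92 to 4.93) in Bnip3-zero cells.

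The other 3 sets had overlapping intervals. The share of Pdk1 among Pdk1 and Pdk3 was 69.4% (51.9 to 83.7) in Bnip3-high and 52.0% (48.0 to 56.0) in Bnip3-zero cells, and that of Hk2 among Hk1 and Hk2 was 54.8% (36.0 to 72.7) in Bnip3-high and 48.4% (45.2 to 51.7) in Bnip3-zero cells. Aldoc supplied 28.8% (24.1 to 33.9) of aldolase UMIs in Bnip3-high and 28.6% (27.9 to 29.3) in Bnip3-zero cells. With Bnip3-high set at 1 UMI the shares lay apart in 6 sets. At 3 UMIs they lay apart in 3 sets, and Slc16a3 supplied 1 of the 5 UMIs of its pair.

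**Figure D5:**
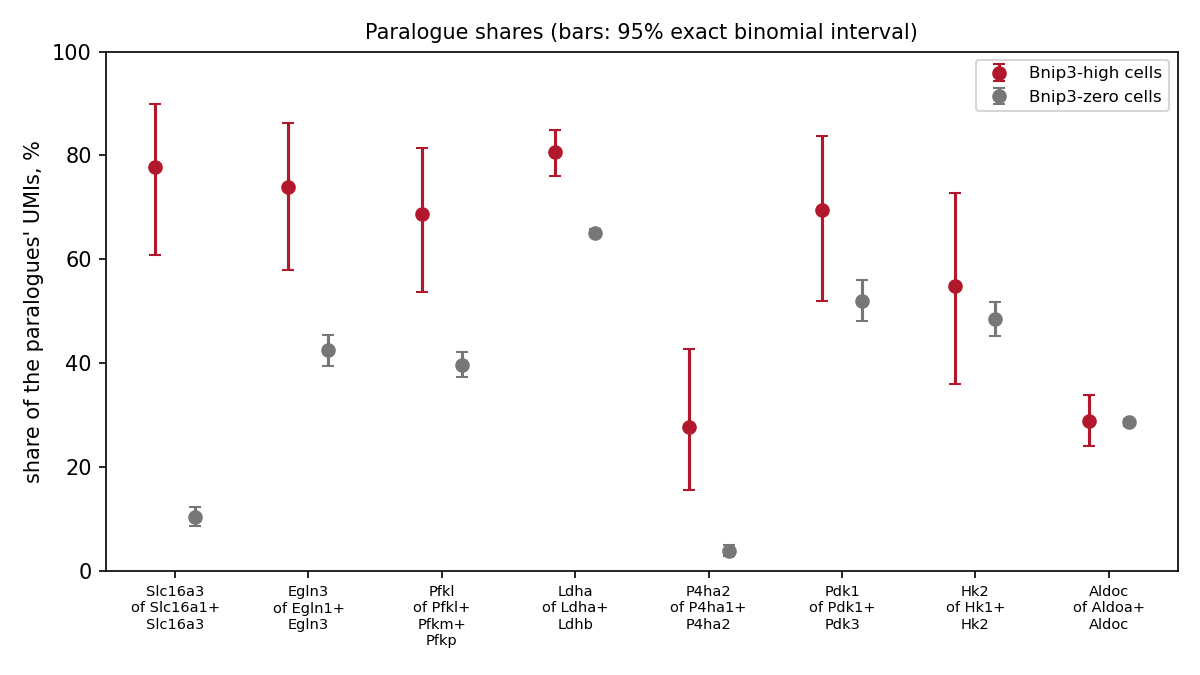
Share of each paralogue set's UMIs (%) that came from the named member in Bnip3-high cells (red) and Bnip3-zero cells (grey), with 95% exact binomial intervals. The shares of Slc16a3, Egln3, Pfkl, Ldha and P4ha2 lie apart, those of Pdk1, Hk2 and Aldoc overlap.

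Near-identical copies limit what some of these counts mean. The last 400 bases of each member's transcripts were compared with all GENCODE M21 transcripts, and a copy was a match of at least 60 bases at 95% identity or more. No copy was found for 26 members, among them Slc16a3, Ndrg1, P4ha2, Ankrd37, Pdk1 and Vegfa. Gapdh (chromosome 6, 125161715 to 125166467) had 111 copies, of which 109 are annotated pseudogenes. Of these copies 5 have a row in the table, and those rows held 241 UMIs, against 242 for Gapdh itself. Ldha had 8 copies, Eno1 6, Pkm 3, Gpi1, Aldoa and Bnip3 2 each, and Tpi1, Ldhb and Higd1a 1 each. Pgk1 (chromosome X, 106187100 to 106203699) had 0 at its end but 4 pseudogenes when any part of the transcript was compared. Pgam1 likewise had 0 at its end and 1 pseudogene by any part.

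Higd1a and its copy were counted in separate rows. The processed pseudogene Gm9790, 99.3% identical over 288 bases, had 626 UMIs beside 688 for Higd1a. In Bnip3-high cells Gm9790 was at 198 CPM, against 34.0 CPM in Bnip3-zero cells, a ratio of 5.82 (3.62 to 8.90), next to 6.02 for Higd1a. From these counts it cannot be told apart which of the pair a molecule came from. Aldoart1, a copy of Aldoa with 96.0% identity, had 71 UMIs and a ratio of 9.54 (2.52 to 25.7) from 4 UMIs in Bnip3-high cells. Both copies of Bnip3 are pseudogenes without a row in the table, and how the counting treated reads that match several places is not given in the sources used here.

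Among hypoxia targets outside the 36 genes, 48 were listed and 41 had at least 50 UMIs. Of these 20 lay above the limit, 20 between the limits and 1, Igfbp3, below, against 2.61% above over all genes. Their median ratio was 2.78. The list was chosen with earlier results of these data known, so its count is not independent of them. The mitochondrial protein gene Fam162a was at 2826 CPM in Bnip3-high and 371 CPM in Bnip3-zero cells (7.62 times), the neuronal enolase Eno2 rose 13.9 times and the glucose transporter Slc2a3 13.7 times (5.32 to 29.5). Of the other HIF pathway genes, 1 of 5 rose, the ubiquitin ligase gene Vhl, at 4.46 (2.12 to 8.30). The pentose phosphate path, which branches from upper glycolysis, had 0 of 7 genes past either limit and a median ratio of 1.13. Pyruvate entry into mitochondria had 0 of 8, with a median of 0.622, and the tricarboxylic acid cycle 0 of 12, with a median of 0.906. In the amino acid response 1 of 10 rose (Ddit3), of the immediate early genes 0 of 6, and of the proliferation genes 2 of 6 fell, Pcna at 0.268 (0.116 to 0.529) and Rrm2 at 0.356 (0.184 to 0.622). Under each of the splits by Ankrd37, Pdk1 and Vegfa, 0 of the 5 other HIF pathway genes and 0 of the 6 proliferation genes passed a limit.

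Of 5 astrocyte markers with at least 50 UMIs, 4 rose (Apoe, Slc1a2, Mlc1 and Slc4a4). The fifth, Gja1, was at 89.99 CPM in Bnip3-high and 141 CPM in Bnip3-zero cells, a ratio of 0.639 (0.306 to 1.18). The sum of the list was 2727 CPM (2428 to 3052) in Bnip3-high and 502 CPM (491 to 513) in Bnip3-zero cells. Apoe, the apolipoprotein gene, supplied most of it, at 2034 CPM in Bnip3-high and 171 CPM in Bnip3-zero cells. Below that minimum, Gfap had 1 UMI in Bnip3-high cells, or 8.999 CPM, against 0.539 CPM in Bnip3-zero cells, a ratio of 16.7 (0.381 to 120). Aqp4 had 2 UMIs, or 18.0 CPM, in Bnip3-high cells and 2.22 CPM in Bnip3-zero cells, a ratio of 8.12 (0.948 to 31.5). Among radial glia markers 1 of 8 rose (Hes1, 2.12 times), and their sum was 10997 CPM in Bnip3-high and 12956 CPM in Bnip3-zero cells. Neuron markers had 1 of 7 called (Tubb3, 5 UMIs), with a sum of 108 CPM in Bnip3-high and 64.1 CPM in Bnip3-zero cells, and Dcx, Stmn2 and Rbfox3 were at 0 in Bnip3-high cells. Endothelial markers had 1 of 1 called (Egfl7, 5 UMIs), with Cldn5, Pecam1, Flt1 and Kdr at 0 in Bnip3-high cells and sums of 45.0 CPM in Bnip3-high and 10.1 CPM in Bnip3-zero cells. Oligodendrocyte precursor markers had 0 of 1 called (Cspg4, 8 UMIs). The sum of all 4 was 117 CPM in Bnip3-high and 32.5 CPM in Bnip3-zero cells, a ratio of 3.60 (1.91 to 6.22) on 13 UMIs. Mural markers had 0 of 2 called, with 18.0 CPM in Bnip3-high and 15.6 CPM in Bnip3-zero cells. The microglia genes in the table had 0 UMIs in Bnip3-high cells and 12 in Bnip3-zero cells, and the 4 erythroid genes were not analysed here. In the Vegfa split, 2 of 7 neuron markers were called (Stmn2 and Gad1). Their list summed to 151 CPM in cells with Vegfa and 58.9 CPM without, a ratio of 2.56 (2.14 to 3.04). That ratio was 1.01 (0.622 to 1.55) with Ankrd37 and 1.36 (0.942 to 1.90) with Pdk1. The mural list had a ratio of 2.12 (1.41 to 3.09) with Vegfa, with 0 of 2 called. The part of these cell type genes in the members' ratios was not tested.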

How the data were processed

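The values that the authors deposited are raw UMI counts, whole numbers for each gene in each barcode. Their genome build was mm10 per the submitters' processing notes. No source used here names the program that aligned or counted the reads, or how barcodes were picked. Depth and filters are given with the results. Cells of at least 1000 UMIs were thinned at random (seed 1) to 1000 UMIs to set the classes, and all UMIs of a class were then summed. Rows for all genes with at least 50 UMIs were computed with the same call. Ratios have exact conditional binomial intervals, levels exact Poisson intervals and shares exact binomial (Clopper-Pearson) intervals, each at 95%. The named genes were the members, 16 further gene lists, and the 10 non-member genes of highest ratio with at least 100 UMIs. The members and lists were chosen with earlier results of these data known. Alternatives changed the filters, the thinning, the Bnip3 limit, the scaling, the fold limit, the splitting gene and single cells. Leaving out a sample was not possible. The tools were blastn 2.17.0 and Python 3.11.15 with pandas 2.3.3, scipy 1.17.1, numpy 2.4.6 and matplotlib 3.10.9, with gene positions of GENCODE M21 on mm10 and upstream sequence of RefSeq on GRCm38.p6.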

Additional observations from a re-analysis of the deposited data

How the results depend on the processing

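Over 23 alternative settings, 21 to 29 members lay above the limit (28 in the reported setting) and 0 below in each, and no ratio turned from a call above to one below. They were counted among 35 members, or 34 where at least 100 UMIs were asked for, and the 3 other splitting genes count Bnip3 in place of themselves. As described above, members of few UMIs could not be called below in the reported setting. The 20 settings that keep the Bnip3 split gave 23 to 29, and the share of all genes called was not computed for them. The lowest, 23, came from weighting cells equally by summing their thinned counts. Next were 24 from Bnip3-high at 3 UMIs and 24 from thinning to 2000 UMIs. Of those 20 settings, Pgk1 kept its call in 9 and Pdk3 in 14. Slc16a3, with 4.56 (0.115 to 26.0), Hk2 and Kdm3a lost theirs at 3 UMIs. Hk1 and Pfkp lost theirs with thinning to 2000 UMIs, and Pfkp and Kdm3a with a second thinning. Hk1, Pfkl and Pgam1 lost theirs with equal weight. The thinned counts of that setting also hold fewer UMIs per class, which widens intervals. The losses with equal weight can therefore not be put down to weighting alone. In the same 20 the ratios of Ankrd37 lay between 8.99 and 38.9 and those of Pdk1 between 7.31 and 25.8. The number of paralogue sets with shares apart was 3 at 3 UMIs and 6 at 1 UMI, against 5. Scaling by the median ratio moved the all-gene median on the log2 scale to -0.27, against -0.14, with 27 members above. Equal weight per cell and leaving out single cells were added after the data were seen. With 33 Bnip3-high cells and 111120 UMIs, genes with few UMIs have wide intervals. No paired analysis was possible because the table does not assign barcodes to the labelled samples, and for the same reason no sample could be left out.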

Other observations

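Outside the 36 genes, the genes of highest ratio in Bnip3-high cells with at least 100 UMIs included genes of growth regulators and metal-binding proteins. Of the 10 named here, Cdkn1c, Mt1, Mt2, Selenbp1 and Eno2 also belong to the list of further hypoxia targets. That list was chosen with earlier results of these data known, so the overlap is not independent of them. Of the 246 genes above the limit with at least 100 UMIs, members included, 27 were members, and 4 members were among the 20 of highest ratio. Igfbp5, an insulin-like growth factor binding protein gene, was at 477 CPM in Bnip3-high and 13.2 CPM in Bnip3-zero cells, 36.0 times higher (26.2 to 48.8), with UMIs in 20 of the 33 cells. Cdkn1c, the imprinted cell cycle inhibitor p57, was 35.9 times higher (26.6 to 47.8), but 36.7% of its UMIs came from 1 of 9 cells. The metallothioneins, which bind zinc and copper, were abundant: Mt1 was at 11366 CPM in Bnip3-high and 732 CPM in Bnip3-zero cells, and Mt2 at 5445 CPM in Bnip3-high and 201 CPM in Bnip3-zero cells, with Mt1 found in 32 and Mt2 in 26 of the 33 cells. Draxin, an axon guidance gene, was 28.8 times higher, Selenbp1, a selenium-binding protein gene, 26.1 times, Prelid2 15.4 times, the caveolin gene Cav1 14.7 times and Eno2 13.9 times. The imprinted RNA H19 was 21.7 times higher, with 40.0% of its 15 UMIs from 1 of 5 cells.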
